A study of Homo sapiens with 2 samples.

Results

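The 42 genes described here encode enzymes that write chemical marks on RNA, enzymes that remove them, and proteins that read them. They were chosen by name and role, with earlier results of these data known but with no rule on their levels, around N-acetyltransferase 10 (NAT10), the acetyltransferase that the study placed at its centre. All 42 were found among the 18930 genes of the deposited table, and all 42 had at least 10 reads over both libraries. The data are 1 RNA-seq library with the label DR and 1 with the label WT. Both carry the label A375, which names a line of human melanoma cells. The study describes the DR cells as made resistant to dacarbazine (DTIC), a drug that alkylates DNA, by exposing the cells to rising concentrations, and WT as the wild-type control. The labels give both samples DMEM with 10% FBS and 105 days of the drug, which they spell DITC, so that the labels alone do not separate the groups by treatment. With 1 library per group there was no replicate check and no test, and each difference is one between these 2 libraries, not between the conditions.

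RNA modifications form a layer of control after transcription. Writers such as the METTL3 and METTL14 methyltransferase place N6-methyladenosine (m6A) on mRNA, erasers take it off, and readers bind it and steer the message towards translation, decay or export. Other enzymes acetylate cytidine (ac4C), methylate cytidine (m5C), turn uridine into pseudouridine, or deaminate adenosine to inosine (A-to-I editing), largely on transfer and ribosomal RNA and in part on mRNA.

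The estimated counts summed to 54878355 reads in the library labelled DR against 35294670 reads in that labelled WT. The 42 genes together took 0.491% and 0.517% of these reads. Levels are given as normalized CPM, the counts scaled by TMM to library size. Where values stand in pairs, the library labelled DR comes first. Log2 fold changes are those of the library labelled DR over the library labelled WT on the scale of log2(CPM + 0.5). The intervals beside them are 95% Clopper-Pearson intervals without the pseudocount. They cover read counting only, and reads without molecular identifiers are not independent molecules. The names that tie the 2 count columns to the labels differ in 1 punctuation mark, and every direction given here rests on them. The labelled cell type was compared with its markers. Of 11 melanocytic genes listed, 9 had counts, with a median of 0.234 CPM in the library labelled DR against 0.488 CPM in that labelled WT and summed levels of 43.0 and 42.2 CPM. Of these 9 genes, 4 had at most 3 reads in the library labelled DR against 2 in that labelled WT. SOX10, a defining transcription factor of the melanocyte lineage, had 3 reads and 0 reads, while MITF, another, had 34.6 and 34.7 CPM. The 10 plasma cell genes listed had medians of 427 and 357 CPM and summed levels of 5071 and 6127 CPM, and none of them was at 0. These levels go against the labelled cell type in both libraries, which are therefore named only by their labels. In bulk RNA, fewer cells of a type and less RNA per cell cannot be told apart.

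Promoter sequence was available from RefSeq (GRCh38.p14) for 37 of the 42 genes. The 150 bases before the transcription start are printed for the ac4C pair and for 4 members with the lowest and highest log2 fold changes, to show what the starts of these genes look like. Capitals mark matches, on either strand, to the GC box (GGGCGG), the E-box (CACGTG), the CCAAT box (CCAAT), the ETS core (CCGGAAG) and the NRF1 motif (GCGC, any 2 bases, GCGC). NAT10 and its adaptor THUMPD1 start at chr11:34105479-34105628 (plus strand) and chr16:20741819-20741968 (minus strand), given as the span of the bases printed.
NAT10: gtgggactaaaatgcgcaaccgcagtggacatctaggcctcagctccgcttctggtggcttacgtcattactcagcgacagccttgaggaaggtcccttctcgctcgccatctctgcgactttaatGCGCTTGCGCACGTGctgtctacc
THUMPD1: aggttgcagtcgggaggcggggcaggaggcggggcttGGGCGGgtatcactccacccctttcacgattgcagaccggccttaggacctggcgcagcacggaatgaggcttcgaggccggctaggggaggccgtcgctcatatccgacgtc
The NAT10 stretch holds an NRF1 motif and an E-box that overlap by 1 base, from 24 to 10 bases before the start. The THUMPD1 stretch holds neither and has 1 GC box by these letters. The genes TRDMT1 (chr10:17201673-17201822, minus strand) and ZC3H13 (chr13:46052747-46052896, minus strand) had the lowest of the set.
TRDMT1: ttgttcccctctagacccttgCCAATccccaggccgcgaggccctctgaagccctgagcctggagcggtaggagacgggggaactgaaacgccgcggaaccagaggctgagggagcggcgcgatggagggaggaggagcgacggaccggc
ZC3H13: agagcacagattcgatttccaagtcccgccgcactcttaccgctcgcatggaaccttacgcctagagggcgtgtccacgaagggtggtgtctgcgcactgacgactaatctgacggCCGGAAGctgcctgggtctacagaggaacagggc
The genes NSUN5 (chr7:73308827-73308976, minus strand) and WDR4 (chr21:42879540-42879689, minus strand) had the highest with a pseudocount of 0.5 CPM. With 0.1 CPM, IGF2BP1 came first.
NSUN5: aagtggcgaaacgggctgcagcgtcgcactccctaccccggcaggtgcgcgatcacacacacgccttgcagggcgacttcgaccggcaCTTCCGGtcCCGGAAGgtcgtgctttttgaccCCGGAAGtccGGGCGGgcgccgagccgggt
WDR4: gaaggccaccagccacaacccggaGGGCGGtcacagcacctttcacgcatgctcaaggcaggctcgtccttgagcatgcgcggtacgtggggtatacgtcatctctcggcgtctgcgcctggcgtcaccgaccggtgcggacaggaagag
NSUN5 has 3 ETS cores within 62 bases of its start, and WDR4 has 1 GC box. Within 250 bases before a start, 13 of the 37 members with a promoter (35.1%) held the ETS core, against 16.5% of the 12803 counted genes with a promoter. The GC box was found in 27 members (73.0%, against 69.7%), the CCAAT box in 19 (51.4%, against 40.8%), the NRF1 motif in 7 (18.9%, against 14.4%) and the E-box in 6 (16.2%, against 10.6%). A match to these letters is a description of the sequence and not a binding site.

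Most of the 42 genes lay within 1.5-fold between the libraries, as did most of all genes kept. The lowest log2 fold change was -1.01 (TRDMT1) and the highest 0.69 (NSUN5), both with the 0.5 CPM pseudocount. Past 2-fold, 0 members were higher in the library labelled DR, against 7.48% of the 16210 genes kept, and 1 member was lower, against 4.16%. Past 1.5-fold, 3 members were higher (7.14%, against 15.1% of genes kept) and 6 were lower (14.3%, against 11.2%), while 33 lay within 1.5-fold. The members higher past 1.5-fold were NSUN5, WDR4 and IGF2BP1, and those lower were TRDMT1, ZC3H13, ADARB1, NSUN2, METTL16 and YTHDF1. Of the 42, 40 averaged 10 CPM or more over both libraries, as did 9860 genes in all. Of these 40 members 0 were higher and 1 was lower past 2-fold, against 4.08% and 3.66% of the 9860 genes, and 2 were higher and 6 lower past 1.5-fold, against 9.74% and 11.1%. The share of members lower past 1.5-fold was thus near that of all genes.

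The median log2 fold change of the members was -0.17, with quartiles of -0.41 and 0.12, against a median of 0.01 and quartiles of -0.28 and 0.34 for all genes kept. A log2 fold change below 0 was found for 26 members (61.9%), against 48.9% of all genes kept and 53.2% of those averaging 10 CPM or more. The counting interval lay below 0 for 22 members, against 34.6% of all genes kept, above 0 for 11, against 35.8%, and held 0 for 9. All 22 were among the 40 members averaging 10 CPM or more, as were 10 of the 11, and at that level 44.4% of genes had an interval below 0 and 37.8% one above 0. The interval lay wholly past 1.5-fold on the lower side for TRDMT1, ZC3H13, ADARB1 and NSUN2, 4 members, against 8.43% of all genes kept and 8.74% of those averaging 10 CPM or more. On the higher side it did so for 1 member, NSUN5, against 11.7% and 7.59%. Just outside the 1.5-fold limit was YTHDF1 (-0.59), and just inside it was PUS1 (-0.57). Of the 9 members past 1.5-fold, 5 had fractional counts in the deposited table, among them 4 of the 6 lower ones. Such counts are common, found for 20 of all 42 members and 9108 of the 18267 genes with counts. How reads were divided is not given in the sources used here, and its part in the result was not tested. In RefSeq 9 of the 42 genes overlap another counted gene: THUMPD1, METTL3, WTAP, RBM15B, IGF2BP3, NSUN3, ALYREF, PUS3 and DIMT1. Overlap here means that the spans of the genes touch, and overlap of exons was not checked. Without a stated strand, reads from a stretch shared by both genes cannot be told apart.

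**Figure D1:**
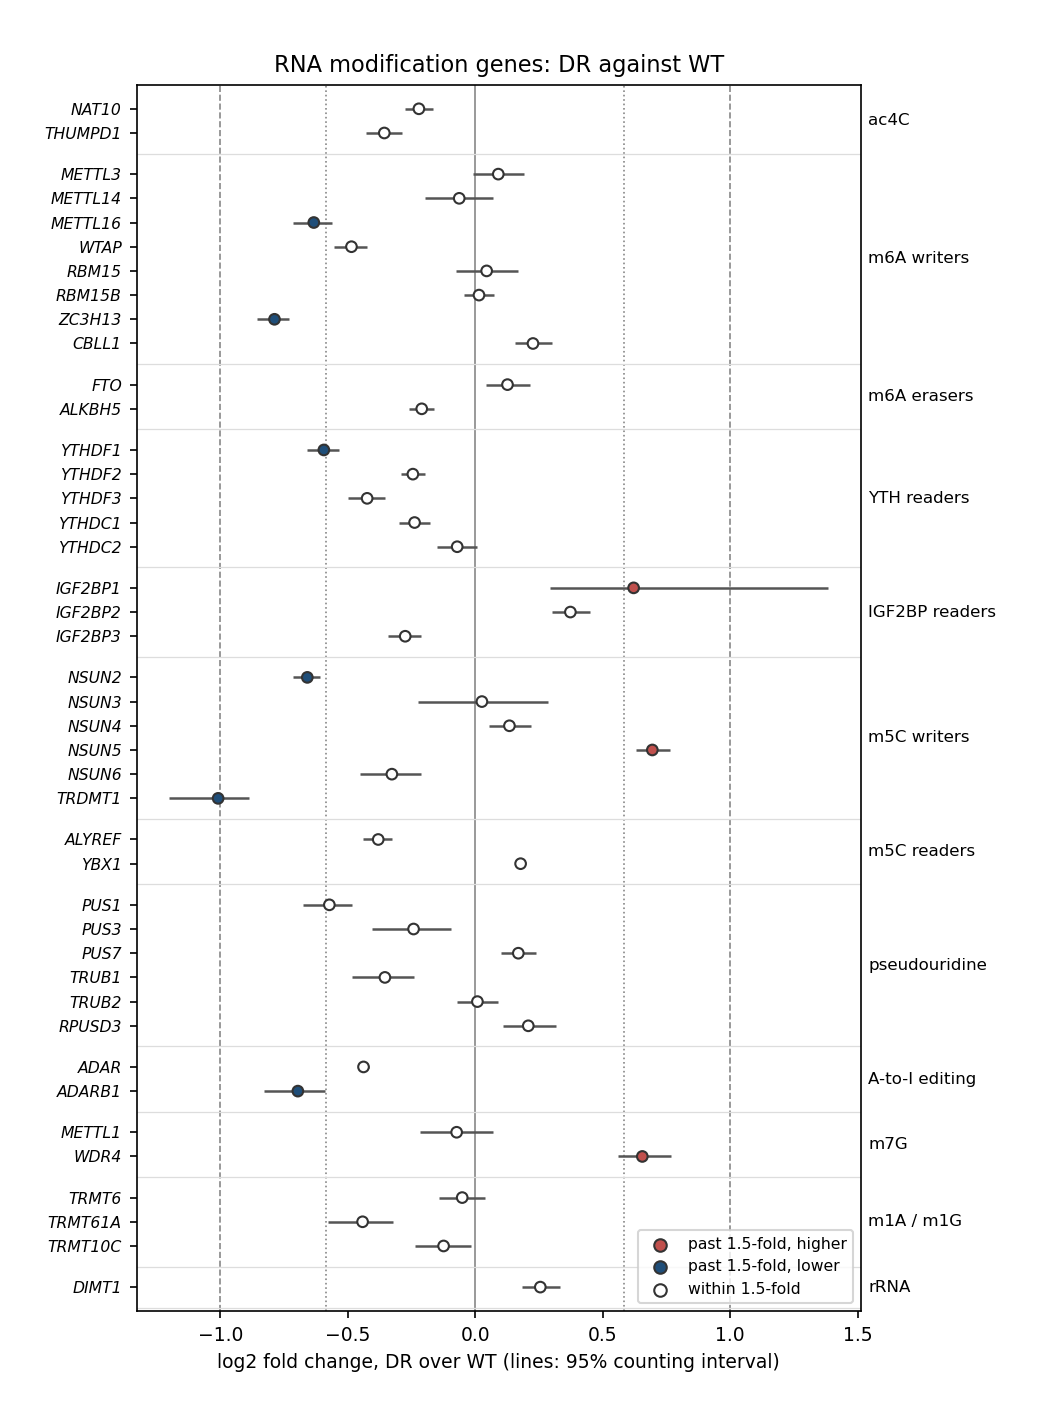
Log2 fold change of each of the 42 genes (x axis, library labelled DR over library labelled WT) by role (y axis), with horizontal lines for the 95% counting interval, dotted lines at 1.5-fold and dashed lines at 2-fold. Filled points lie past 1.5-fold. Of the 42, 3 are higher and 6 are lower, and only TRDMT1 (-1.01) lies past 2-fold.

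NAT10, which acetylates cytidine in ribosomal RNA, transfer RNA and mRNA, had 114.6 CPM in the library labelled DR against 133.6 CPM in that labelled WT. Its adaptor THUMPD1, which binds transfer RNA and is needed for its acetylation, had 64.3 and 82.4 CPM. Both genes of the ac4C pair thus had the lower level in the library labelled DR. For NAT10 this is the opposite direction to the study. From bulk RNA sequencing of WT and DR A375 cells, the study counts NAT10 among the genes most highly expressed in DR cells. It also reports higher NAT10 mRNA and protein in DR cells of both A375 and a further line, MeWo, which are measures apart from these libraries. The cause of the difference was not tested. The log2 fold changes were -0.22 (interval -0.28 to -0.17) for NAT10 and -0.36 (interval -0.43 to -0.29) for THUMPD1, and neither passed 1.5-fold. Of all genes kept, 29.6% had a lower log2 fold change than NAT10 and 20.3% a lower one than THUMPD1. The ratio of NAT10 to THUMPD1 reads, which does not depend on how the libraries are scaled, differed by 0.14 on the log2 scale (interval 0.05 to 0.23). Per gene length, NAT10 stood at 1.88 times the level of THUMPD1 in the library labelled DR against 1.71 times in that labelled WT.

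The core of the m6A writer complex differed little between the libraries. METTL3, its catalytic subunit, had 39.5 CPM in the library labelled DR against 37.0 CPM in that labelled WT, a log2 fold change of 0.09 (interval -0.01 to 0.19). METTL14, its RNA-binding partner, had 20.6 and 21.6 CPM (-0.06, interval -0.20 to 0.07). Both intervals held 0. The interval of the change of the METTL3 to METTL14 ratio also held 0 (0.16, interval -0.01 to 0.32). RBM15 (26.4 and 25.6 CPM) and RBM15B (110.4 and 109.3 CPM), paralogs that bring the complex to its RNA targets, had log2 fold changes of 0.04 (interval -0.08 to 0.17) and 0.01 (interval -0.04 to 0.07). For these 4 subunits no difference was detectable at this depth.

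Other subunits differed. WTAP, the adaptor that places the core in nuclear speckles, had 76.2 CPM in the library labelled DR against 106.9 CPM in that labelled WT (-0.49, interval -0.55 to -0.42). ZC3H13, a zinc finger protein that holds the complex in the nucleus, had 70.6 and 122.3 CPM (-0.79, interval -0.86 to -0.73), the lowest of the 8 m6A writers. CBLL1, the ubiquitin ligase also called HAKAI, had 76.0 and 64.9 CPM and was the only m6A writer whose interval lay above 0 (0.23, interval 0.15 to 0.30). The ratio of WTAP to METTL3 was 0.58 lower on the log2 scale in the library labelled DR (-0.58, interval -0.70 to -0.46). METTL16, a separate methyltransferase that acts on a spliceosomal RNA and on the mRNA of a methionine adenosyltransferase, had 52.2 and 81.2 CPM (-0.63, interval -0.71 to -0.56). Of the 8 m6A writers 2 were lower past 1.5-fold, against 11.2% of all genes kept, and 0 were higher, against 15.1%. The median log2 fold change of the 8 was -0.02.

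The m6A erasers, FTO and ALKBH5, are demethylases of the same enzyme class. FTO had 53.1 CPM in the library labelled DR against 48.6 CPM in that labelled WT (0.13, interval 0.04 to 0.21). ALKBH5 had 148.6 and 172.0 CPM (-0.21, interval -0.26 to -0.16). They differed in opposite directions, both within 1.5-fold. Per length, FTO stood at 0.340 times the level of ALKBH5 in the library labelled DR against 0.269 times in that labelled WT, a difference of 0.34 on the log2 scale (interval 0.24 to 0.44).

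All 5 readers with a YTH domain, the fold that holds the methyl group of m6A, had log2 fold changes below 0. A value below 0 was found for 48.9% of all genes kept and 53.2% of those averaging 10 CPM or more, and 5 genes are few. Among the cytoplasmic readers, YTHDF1 had 75.4 CPM in the library labelled DR against 114.1 CPM in that labelled WT (-0.59, interval -0.66 to -0.53). YTHDF2, known for sending messages to decay, had 154.9 and 183.7 CPM (-0.25, interval -0.29 to -0.20). YTHDF3 had 59.0 and 79.4 CPM (-0.42, interval -0.50 to -0.35). Only YTHDF1 passed 1.5-fold. The nuclear reader YTHDC1 had 91.9 and 108.5 CPM (-0.24, interval -0.30 to -0.18). YTHDC2, which also carries a helicase domain, had 59.6 and 62.6 CPM, and its interval held 0 (-0.07, interval -0.15 to 0.01). Within the YTHDF family, YTHDF2 took 61.8% of the length-scaled level in the library labelled DR against 56.9% in that labelled WT. The share of YTHDF1 was 25.5% and 29.9%, and that of YTHDF3 was 12.6% and 13.2%. The ratio of YTHDF1 to YTHDF2 differed by -0.35 on the log2 scale (interval -0.43 to -0.27).

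The IGF2BP proteins, which bind and stabilize m6A-bearing and other mRNAs, did not go one way. IGF2BP2 had 79.5 CPM in the library labelled DR against 61.3 CPM in that labelled WT (0.37, interval 0.30 to 0.45). IGF2BP3 had 79.5 and 96.3 CPM (-0.28, interval -0.34 to -0.21). In reads, the library labelled DR held 4417 of IGF2BP2 and 4418 of IGF2BP3, and that labelled WT held 2136 and 3358. The order of these paralogs turned between the libraries only per length, with IGF2BP3 at 0.895 times the level of IGF2BP2 in the library labelled DR against 1.41 times in that labelled WT. The difference in this ratio, which length does not touch, was -0.65 on the log2 scale (interval -0.75 to -0.55), the second largest of 15 ratios compared. IGF2BP1, a fetal gene that many adult cells do not use, had 113 and 40 reads, or 2.03 and 1.15 CPM (0.62, interval 0.29 to 1.38). It made up 0.535% and 0.309% of the family's length-scaled level.

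**Figure D2:**
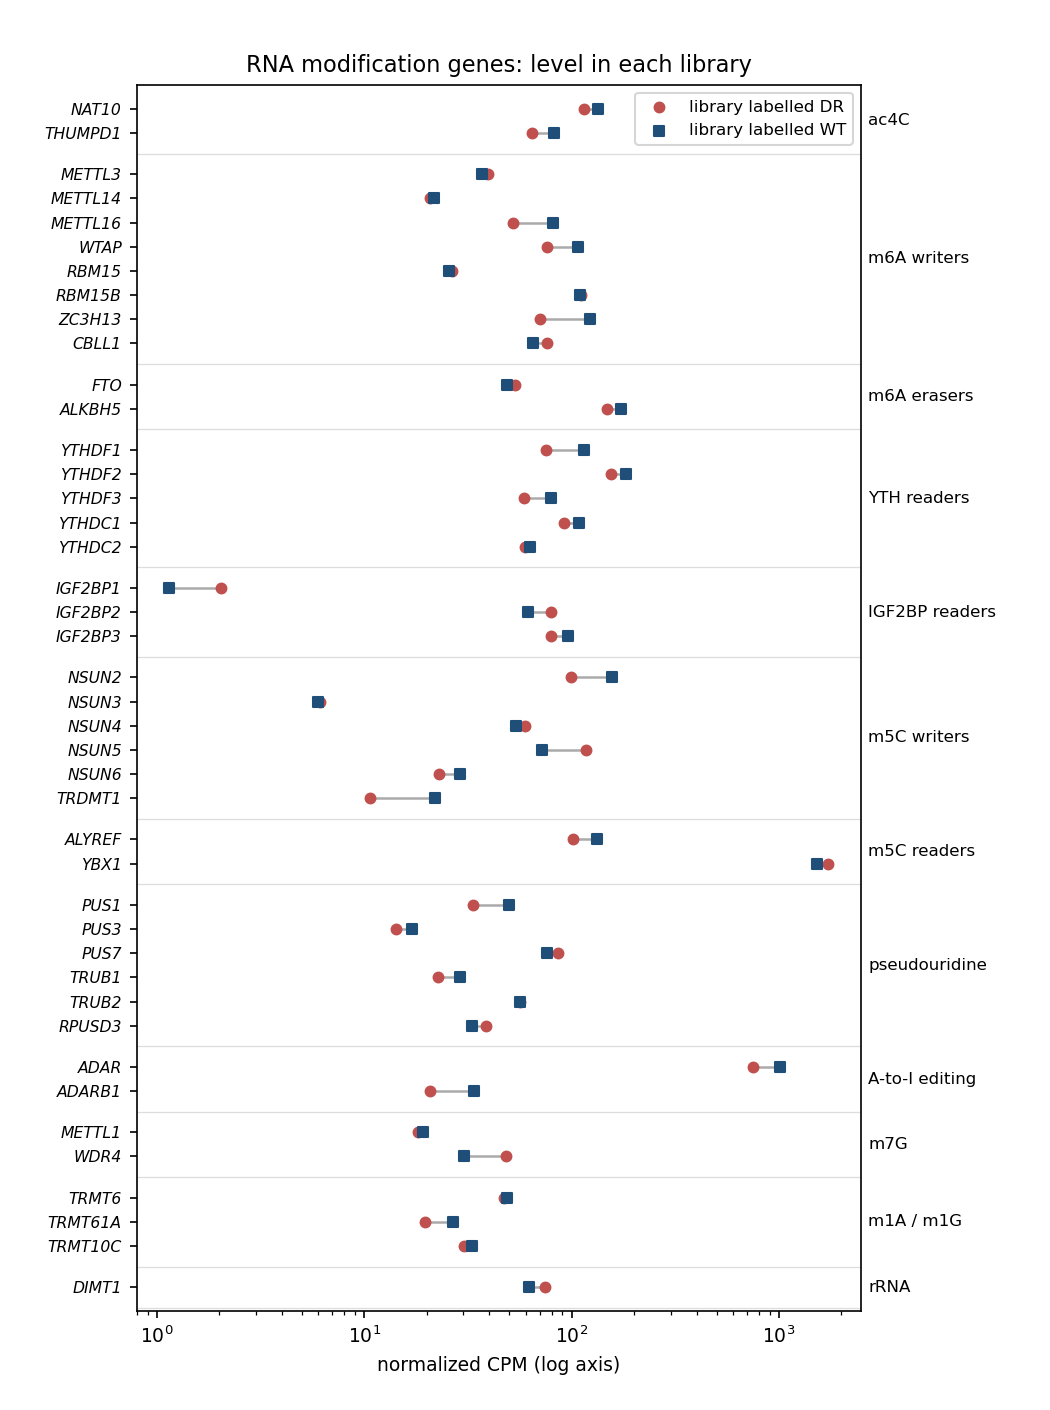
Normalized CPM (x axis, log scale) of each of the 42 genes (y axis, by role) in the library labelled DR (circles) and the library labelled WT (squares), 1 library each. YBX1 and ADAR lie far above the others and IGF2BP1 far below them, and the distance between circle and square is short for most genes.

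With the 0.5 CPM pseudocount, m5C writers had the lowest and the highest log2 fold change of the set. With 0.1 CPM the highest was that of IGF2BP1 (0.77, against 0.70 for NSUN5). TRDMT1, also known as DNMT2, methylates transfer RNA, and it had 591 reads in the library labelled DR against 764 in that labelled WT, or 10.6 and 21.9 CPM (-1.01, interval -1.20 to -0.89). It was the only member past 2-fold, and its interval holds values on either side of that limit. In the gene order of RefSeq, TRDMT1 lies next to VIM, the gene of vimentin, which had 139.4 and 1166.5 CPM (-3.06). The neighbour on the other side, CUBN, had 65 and 77 reads and a log2 fold change of -0.70. The part of VIM and CUBN in the TRDMT1 result was not tested. Neighbours of other members did not all share the member's direction. NAT10 (-0.22), for example, lies between CAPRIN1 (-0.84) and ABTB2 (0.44). NSUN2, which methylates transfer RNA and mRNA, had 98.8 CPM in the library labelled DR against 156.3 CPM in that labelled WT (-0.66, interval -0.72 to -0.61). NSUN5, which methylates the RNA of the large ribosomal subunit, went the other way with 116.6 and 71.9 CPM (0.69, interval 0.63 to 0.77). NSUN5 has near-identical pseudogene copies, its estimated counts are fractional, and its value is uncertain.

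The other NSUN genes lay within 1.5-fold. NSUN3 and NSUN4 act in mitochondria, on a transfer RNA and on ribosomal RNA. NSUN3 had 6.08 CPM in the library labelled DR against 5.97 CPM in that labelled WT (0.03, interval -0.23 to 0.28). NSUN4 had 59.3 and 54.0 CPM (0.13, interval 0.05 to 0.22). NSUN6, which methylates transfer RNA and some mRNAs, had 23.0 and 28.9 CPM (-0.33, interval -0.45 to -0.21). Of the 6 m5C writers, 1 was higher past 1.5-fold, against 15.1% of all genes kept, and 2 were lower, against 11.2%.

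Proteins that bind m5C also differed in direction. ALYREF, an mRNA export adaptor, had 101.5 CPM in the library labelled DR against 132.3 CPM in that labelled WT (-0.38, interval -0.44 to -0.33). YBX1, an abundant cold-shock domain protein of messenger ribonucleoproteins, had 1724 and 1524 CPM, the highest level of the 42 genes in both libraries (0.18, interval 0.16 to 0.19). YBX1 has processed pseudogenes, and its counts are fractional. The ratio of ALYREF to NSUN2 was higher in the library labelled DR by 0.28 on the log2 scale (interval 0.20 to 0.36).

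Of the 6 pseudouridine synthases, 0 passed 1.5-fold in either direction, where all genes kept gave 15.1% higher and 11.2% lower, and a count of 0 among 6 is not a result about them. A log2 fold change above 0 was found for 3 of them and one below 0 for 3. PUS1, which modifies transfer RNA and mRNA, came nearest to the limit with 33.3 CPM in the library labelled DR against 49.7 CPM in that labelled WT (-0.57, interval -0.68 to -0.48). PUS7, which acts on both kinds of RNA as well, had 85.8 and 76.3 CPM (0.17, interval 0.10 to 0.24). The transfer RNA enzyme PUS3 had 14.3 and 17.0 CPM (-0.24, interval -0.41 to -0.09), and HYLS1, which overlaps it, had a log2 fold change of -0.93. Genes that overlap other members did not all share the member's direction. MALSU1 (0.37), for example, overlaps IGF2BP3 (-0.28), and SOD2 (-0.28) overlaps WTAP (-0.49). TRUB1, which acts on mRNA and transfer RNA, had 1254 and 1011 reads (-0.35, interval -0.48 to -0.24). TRUB2 and RPUSD3, both of which work in mitochondria, had 56.6 and 56.3 CPM (0.01, interval -0.07 to 0.09) and 38.4 and 33.2 CPM (0.21, interval 0.11 to 0.32). Of this pair only RPUSD3 had an interval above 0. The ratio of TRUB1 to TRUB2 differed by -0.37 on the log2 scale (interval -0.52 to -0.22).

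The adenosine deaminases of A-to-I editing were both lower in the library labelled DR. ADAR, whose longer form is induced by interferon and marks double-stranded RNA as self, had 746.1 CPM in the library labelled DR against 1011.4 CPM in that labelled WT (-0.44, interval -0.46 to -0.42). ADARB1, the editor of glutamate receptor messages in neurons, had 20.7 and 33.9 CPM (-0.70, interval -0.83 to -0.59). ADARB1 passed 1.5-fold and ADAR did not. Per length, ADAR stood at 29.9 times the level of ADARB1 in the library labelled DR against 24.8 times in that labelled WT. The table counts genes, so that the forms of ADAR were not separated.

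Enzymes of transfer and ribosomal RNA methylation showed unequal differences between partners. METTL1, the catalytic subunit of the m7G methyltransferase of transfer RNA, had 18.2 CPM in the library labelled DR against 19.1 CPM in that labelled WT (-0.07, interval -0.22 to 0.07). Its scaffold WDR4 had 48.1 and 30.4 CPM (0.66, interval 0.56 to 0.77). METTL1 stood at 0.524 times the length-scaled level of WDR4 in the library labelled DR against 0.874 times in that labelled WT, a difference of -0.74 on the log2 scale (interval -0.92 to -0.56) and the largest of the 15 ratios. In the m1A methyltransferase, the partner TRMT6 had 47.0 and 48.7 CPM (-0.05, interval -0.14 to 0.04), while the catalytic subunit TRMT61A had 19.6 and 26.8 CPM (-0.44, interval -0.58 to -0.32). TRMT6 stood at 3.33 times the length-scaled level of TRMT61A in the library labelled DR against 2.52 times in that labelled WT. TRMT10C, a subunit of mitochondrial RNase P, had 30.2 and 33.0 CPM (-0.12, interval -0.24 to -0.02). DIMT1, which dimethylates adenosines of the small ribosomal subunit RNA, had 74.5 and 62.4 CPM (0.25, interval 0.18 to 0.33).

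**Figure D3:**
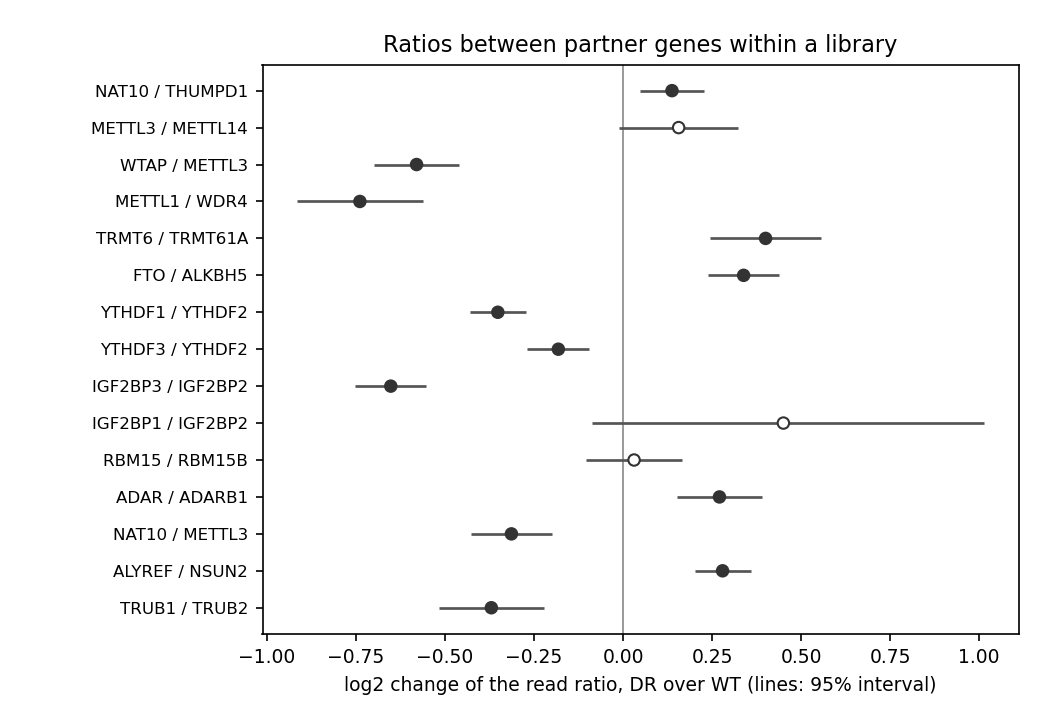
Change of the read ratio between the 15 pairs of genes (y axis) as log2, library labelled DR over library labelled WT (x axis), with exact 95% intervals for read counting. Filled points are the 12 ratios whose interval does not hold 0, and METTL1 to WDR4 (-0.74) and IGF2BP3 to IGF2BP2 (-0.65) lie furthest out.

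Across all 15 ratios, which are free of library scaling, the interval did not hold 0 for 12 and held it for 3. The 3 were METTL3 to METTL14, RBM15 to RBM15B (0.03, interval -0.10 to 0.17) and IGF2BP1 to IGF2BP2 (0.45, interval -0.09 to 1.01). Only 2 ratios differed by more than 1.5-fold. NAT10 relative to METTL3 was lower in the library labelled DR by 0.31 on the log2 scale (-0.31, interval -0.43 to -0.20). The ratios share genes, and 15 of them were compared without any correction. For single genes, the interval lay above 0 for 35.8% of all genes kept and below 0 for 34.6%. Among genes averaging 10 CPM or more these shares were 37.8% and 44.4%. An interval without 0 is thus common at this depth, and ratios of other gene pairs were not computed.

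Levels between genes were compared as TPM, that is reads per kilobase of gene length scaled to the same sum in each library. On this scale YBX1 had 1219 in the library labelled DR against 1091 in that labelled WT, followed by ADAR (256.7 and 352.4) and ALYREF (203.6 and 268.7). NAT10 had 63.0 and 74.5, at percentiles 81.9 and 84.1 of the genes kept. METTL3 had 43.7 and 41.5, and METTL14 had 16.3 and 17.2. IGF2BP1 was the lowest at 0.519 and 0.297. The medians of the 42 genes were 40.5 and 39.9, against 14.4 and 14.5 for all genes kept. Above the median gene lay 37 of the 42 genes in the library labelled DR against 38 in that labelled WT, and 20 against 18 lay in the upper quartile.

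A wider list of 96 other RNA modification genes, written from general knowledge, was counted in the same way. It holds genes of m6A (13 of the 96), m5C, pseudouridine and editing, and genes of the mRNA cap, transfer RNA and ribosomal RNA. Past 2-fold on the scale with the 0.5 CPM pseudocount 0 of them were higher, against 7.48% of all genes kept, and 0 lower, against 4.16%. Without a pseudocount ADAT3 (2.02-fold) and NSUN7 (2.35-fold, from 15 and 4 reads) exceeded 2-fold. Past 1.5-fold 1 was higher (1.04%) and 6 were lower (6.25%), against the 15.1% and 11.2% of all genes kept, and 89 lay within that limit. Of the 90 that averaged 10 CPM or more, 0 were higher and 6 lower past 1.5-fold, against 9.74% and 11.1% of all such genes. The median log2 fold change was -0.10, and 63 of the 96 genes (65.6%) had a value below 0. The share below 0 was 48.9% for all genes kept and 53.2% for those averaging 10 CPM or more. The 1 higher gene was ADAT3, a subunit of the transfer RNA adenosine deaminase, with 9.74 CPM in the library labelled DR against 4.82 CPM in that labelled WT (0.94, interval 0.76 to 1.27). The 6 lower genes were GAR1 (-0.84), TRMT44 (-0.79), THUMPD2 (-0.74), RBMX (-0.72), NOP2 (-0.66) and ELP4 (-0.62). These 7 genes, and those of the next paragraph, were named after their values were seen.

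In 1 particle the subunits differed in direction, and other particles were not compared with it. GAR1, a core protein of the ribonucleoproteins that guide pseudouridylation, had 20.6 and 37.1 CPM, while its partner NHP2 had 133.0 and 95.4 CPM (0.48, interval 0.42 to 0.54). The catalytic subunit DKC1 had 183.3 and 219.9 CPM (-0.26), and NOP10 had 36.5 and 33.6 CPM (0.12). VIRMA, the large scaffold of the m6A writer complex, had 66.3 and 72.0 CPM (-0.12).

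**Figure D4:**
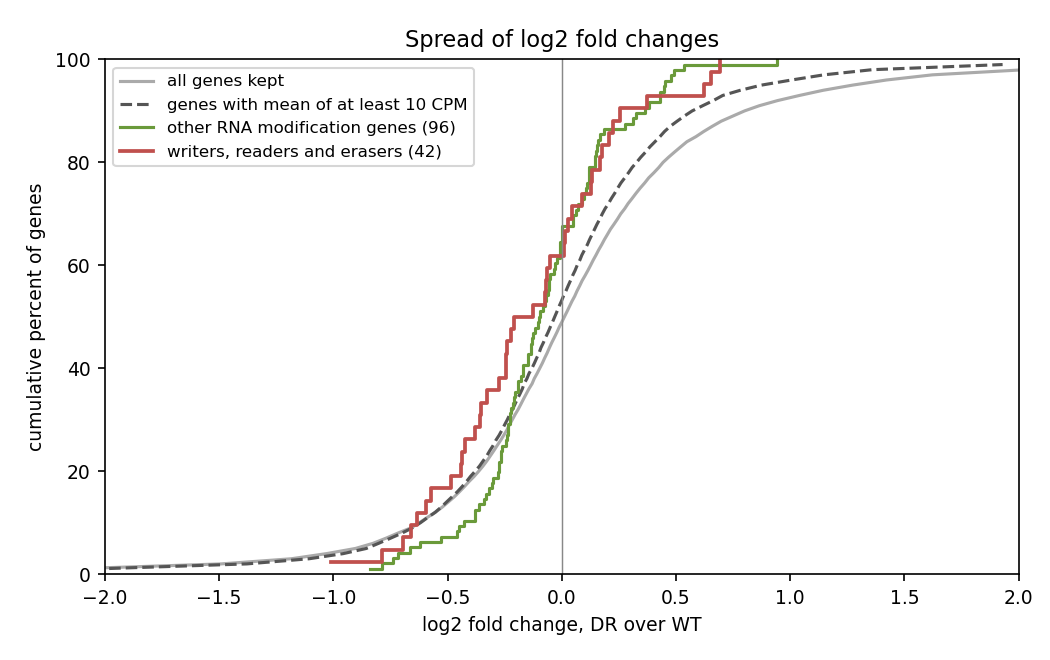
Cumulative percent of genes (y axis) by log2 fold change, library labelled DR over library labelled WT (x axis), for the 42 genes, the 96 other RNA modification genes, all 16210 genes kept and the 9860 averaging 10 CPM or more, the last pair drawn at percentiles. The curves of the modification genes lie to the left of that of all genes at 0, where they reach 61.9% and 65.6% against 48.9%. The curve of the 9860 genes reaches 53.2% there.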

How the data were processed

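The authors deposited 1 table with estimated counts (expected counts) of 2 libraries, 18930 genes, their lengths, and their own log2 ratio, p-value, q-value and annotation, which were not used. The submitters' processing notes name Bowtie 0.12.2 and hg19. The counting tool, annotation and strand setting are not given in the sources used here. A read that fits several copies of a gene could therefore be split, and 9108 of 18267 genes with counts have fractional values. The sample descriptions name the count columns, and through them columns and groups were joined.

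Counts were rounded and scaled by TMM (edgeR 4.0.16, R 4.3.3). Genes under 10 reads over both libraries were left out (2057), which left 16210. The pseudocount was 0.5 CPM. No test was made with 1 library per group. Intervals were computed with SciPy 1.17.1, as Clopper-Pearson intervals or, for ratios, exact conditional intervals of the odds ratio. A depth of 35294670 to 54878355 reads makes 3 reads worth 0.0540 to 0.0861 normalized CPM. The steps were tested on simulated data. Members and lists were chosen with earlier results of these data known. All members are described, and other modification genes were to be named past 2-fold. Neighbours and promoters come from RefSeq GRCh38.p14, with no coordinates of the authors' build. Alternatives were DESeq2 1.42.0 size factors, library totals, other pseudocounts and filters, levels without length, and counts not rounded. The subsets of genes averaging 10 CPM or more and of genes with whole counts were added after seeing the data.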

Additional observations from a re-analysis of the deposited data

How the results depend on the processing

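No paired analysis was possible because each group holds 1 library, and for the same reason no replicate could be left out. The 1 member lower past 2-fold became 0 with library totals, with a pseudocount of 5 CPM and among genes with whole counts, since TRDMT1 lies at the limit and has fractional counts. Among the 22 members with whole counts, 2 were lower past 1.5-fold, against 11.5% of genes with whole counts. Among all 42 members it was 6, against 11.2% of all genes kept. These counts come from sets of unlike size, and the cause of the difference was not tested. Of the other modification genes, those higher past 1.5-fold numbered 2 with a pseudocount of 0.1 CPM and 0 at a mean of at least 10 CPM. Those lower were 3 of the 41 with whole counts. The median log2 fold change of the members ranged from -0.22 to -0.13. None of the 42 members changed sign under the 4 scaling and pseudocount alternatives. Beyond their intervals moved TRDMT1 (-0.78) and IGF2BP1 (0.19) at 5 CPM and ADAR (-0.40) and YBX1 (0.21) with library totals. Level percentiles depend on the filter and on gene length. All 84 moved without a filter and at 50 reads, and 80 moved without length, as did 10 of the 12 family shares. The 15 ratios did not move with counts not rounded. Read counting limits IGF2BP1 most, at 113 and 40 reads.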

Other observations

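Genes of cell growth and of the nucleolus, where several of these enzymes act, were listed beside them. The 10 genes had a median log2 fold change of -0.13, from -0.49 for NCL, the abundant nucleolar protein nucleolin, to 0.80 for MYC, a transcription factor that drives ribosome production. MYC had 978.0 CPM in the library labelled DR against 560.3 CPM in that labelled WT. NPM1, another nucleolar protein, had 1044 and 849 CPM (0.30). MKI67, a marker of dividing cells, had 494.4 and 639.9 CPM (-0.37).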
